A study of Mus musculus with 22 samples.

Results

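Muscarinic acetylcholine receptors and the genes that make, take up and degrade their ligand were followed in lung RNA of BALB/c mice after aerosol challenge. The group comprised 9 genes, found by their symbols among 20938 genes with expression values: the receptor genes Chrm1, Chrm2, Chrm3, Chrm4 and Chrm5, the esterase genes Ache and Bche, the acetylcholine-synthesizing enzyme gene Chat and the choline transporter gene Slc5a7. The 22 lung libraries, each labelled as a biological replicate, fell into 6 groups, with 4 OVA, 4 MCh and 3 PBS libraries in a long and the same in a short protocol. Per the treatment text, all mice, those given PBS included, had been sensitized intraperitoneally when 49 days old, with a booster when 63 days old, and inhaled aerosols from an age of 70 days. The long protocol gave aerosols 3 times a week for 4 weeks, and the short protocol on 3 consecutive days. OVA is ovalbumin, the egg-white allergen of mouse asthma models. MCh is methacholine, an agonist of muscarinic receptors, so that the MCh groups received a ligand of the receptors described here. PBS is the saline vehicle. The labels conflict in places: titles describe PBS and MCh mice as normal although the treatments name sensitized mice, and the titles of the short MCh libraries say 4 days. What was injected to sensitize the mice and how much MCh was inhaled could not be taken from the labels, which also tie no mouse to a litter or day.

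As background, acetylcholine from parasympathetic nerves constricts airways and drives gland secretion through muscarinic receptors. The M1, M3 and M5 receptors couple to Gq proteins, phospholipase C and calcium release, whereas the M2 and M4 receptors couple to Gi and Go proteins, which lower cyclic AMP. In the airway M3 on smooth muscle carries contraction, and M2 on nerve endings limits further release. Acetylcholinesterase ends the signal, butyrylcholinesterase degrades a wider range of choline esters, and methacholine is cleaved slowly by the first and resists the second.

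Expression was given as FPKM, fragment counts scaled to transcript length and library size, and 3 MCh libraries stood apart in it. In the long MCh libraries a and c 34.3% and 33.8% of genes were listed at 0, and 28.3% were in the first short MCh library, where the other 19 libraries had 22.5% to 25.3%. Each library's log2(FPKM + 0.5), less each gene's mean over the 22 libraries, was also correlated with transcript length (Spearman's rho). Short MCh library 4 differed from the other MCh libraries in this relation (rho = -0.649). The 4 short OVA libraries had rho from -0.479 to -0.395, against -0.026 to 0.279 in the short PBS libraries. Library sizes could only be estimated from the smallest steps of FPKM, at 15170000 to 25520000 fragments, a rough value, and no counting error is given. The series text names trachea and the samples lung. The 6 alveolar type 2 genes summed to 12650 to 23630 FPKM and the 6 tracheal cartilage genes to 0 to 3.09 FPKM, so the markers were those of lung. Differences are on the log2(FPKM + 0.5) scale with their standard errors, from limma fitted to all 22 libraries. A gene was called at a Benjamini-Hochberg adjusted p under 0.05 over the 15682 genes with at least 0.1 FPKM in at least 3 libraries. Of the 9 genes 6 passed this filter.

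Butyrylcholinesterase had the highest level of the 9 genes, and the genes that synthesize and load acetylcholine were listed at 0. Bche had a median of 5.95 FPKM over the 22 libraries, Chrm3 0.957, Chrm2 0.737, Chrm1 0.464 and Ache 0.202. Chrm4 was above 0 in 10 libraries and reached 0.128 FPKM at most, and Slc5a7 was above 0 in 2. Chrm5 and Chat were listed at 0 in all 22 libraries, as was the vesicular acetylcholine transporter gene Slc18a3, which lies within the Chat locus. The ranges of Chrm3, Chrm2 and Chrm1 over libraries overlapped widely, from 0.0442 to 1.90 FPKM, 0 to 1.45 FPKM and 0 to 1.27 FPKM. Their order also depends on the length used: the deposited gene values were a multiple of the summed transcript values that differed between genes, about 3.09 for Chrm1, 1.15 for Chrm3 and 0.643 for Chrm2. By mean summed transcript FPKM the order was Bche at 1.64, Chrm2 at 1.21, Chrm3 at 0.845, Ache at 0.399 and Chrm1 at 0.165. Bche led under both, and of the genes above 0 in any library Chrm4 and Slc5a7 stood last.

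**Figure D1:**
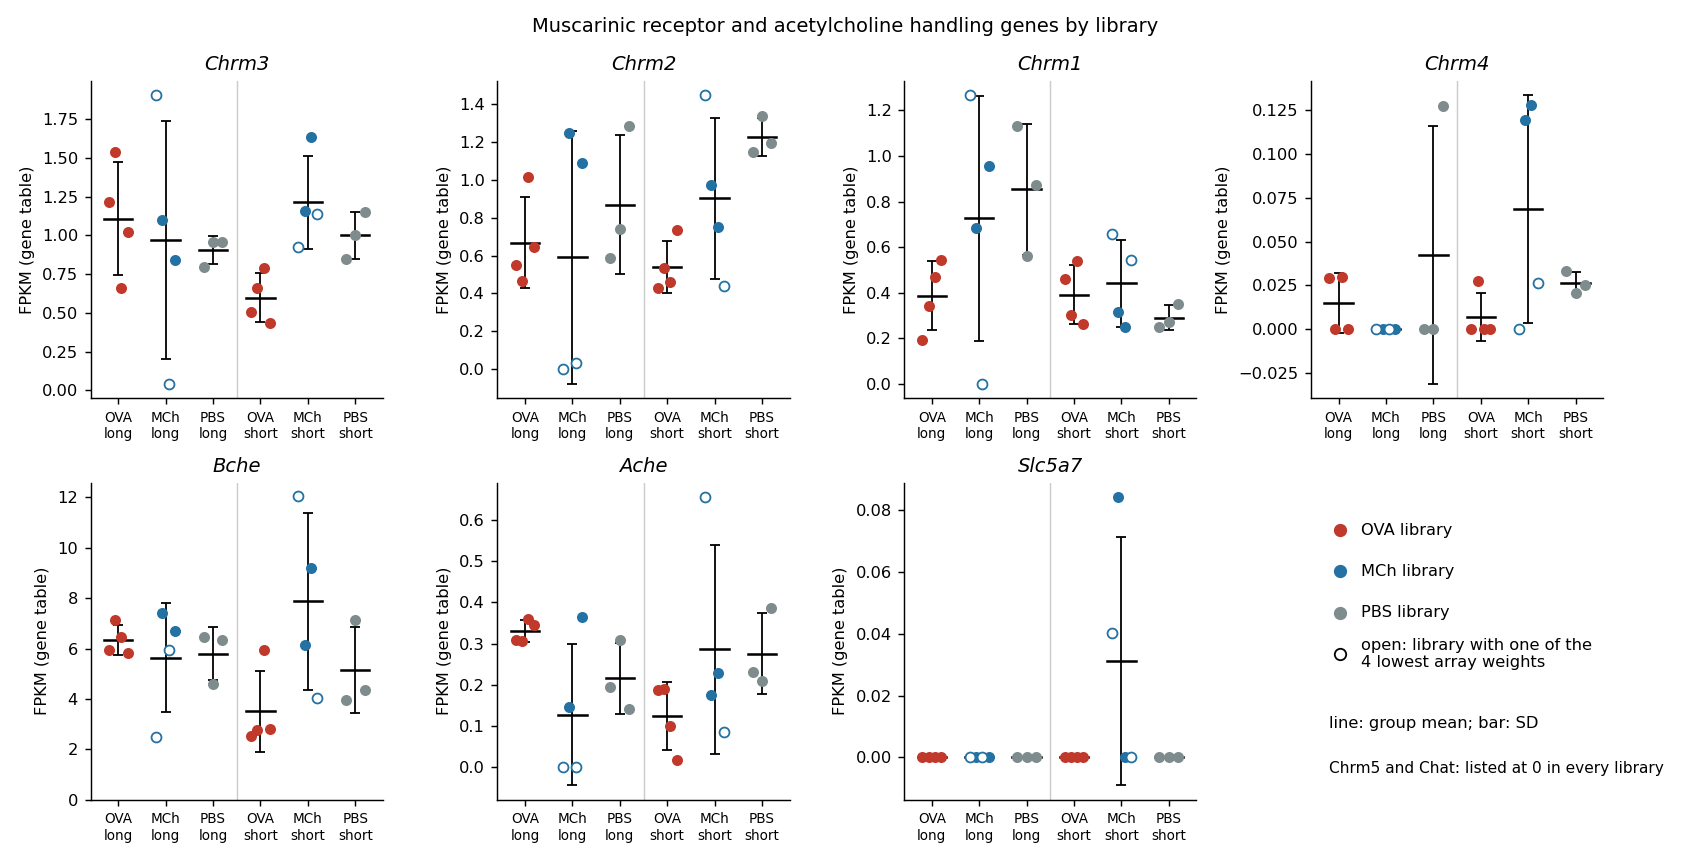
FPKM of 7 of the 9 genes (vertical axes, gene table) in each library of the 6 groups (horizontal axes), with the group mean as a line, the SD as a bar and the 4 libraries of lowest array weight as open points. Bche lies between 2.51 and 12.1 FPKM, the 4 short OVA libraries lie below the short PBS libraries for Chrm3 and Chrm2, and the open MCh points lie at the extremes of several panels.

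The genomic sequence just upstream of 3 of these genes is shown, from RefSeq (GRCm38.p6), because Bche was the only one of the 9 genes called in a comparison, Chrm2 the receptor with the largest difference between OVA and PBS, and Ache the other esterase. Each runs 5′ to 3′ on the gene's strand and ends at the base before the outermost annotated start of the gene, with GC boxes (GGGCGG on either strand) in capitals.
Bche (minus strand, chr3:73708437-73708665): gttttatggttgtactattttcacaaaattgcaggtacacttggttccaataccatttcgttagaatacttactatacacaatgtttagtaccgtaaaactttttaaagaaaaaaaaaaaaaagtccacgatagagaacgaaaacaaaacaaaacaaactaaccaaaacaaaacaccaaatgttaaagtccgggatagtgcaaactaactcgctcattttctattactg
Chrm2 (plus strand, chr6:36387834-36387990): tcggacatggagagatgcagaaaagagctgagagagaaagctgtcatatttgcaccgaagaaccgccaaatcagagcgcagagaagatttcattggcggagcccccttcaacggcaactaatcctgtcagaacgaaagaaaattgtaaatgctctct
Ache (plus strand, chr5:137288004-137288246): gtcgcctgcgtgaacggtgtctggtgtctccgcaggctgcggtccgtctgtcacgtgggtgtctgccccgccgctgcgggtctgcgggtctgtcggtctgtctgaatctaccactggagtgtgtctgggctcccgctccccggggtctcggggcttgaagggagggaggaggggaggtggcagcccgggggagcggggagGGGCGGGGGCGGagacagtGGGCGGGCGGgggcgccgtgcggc
The 2 esterase genes differ in base composition, with 73.3% G or C in the Ache window and 31.0% in the Bche window, and 46.5% in that of Chrm2. The Ache window holds 4 GC boxes, the last pair of which overlap each other, and the other windows hold none. A GC box stands in 31.8% of 32851 windows of the Ache length, 29.7% of those of the Bche length and 17.6% of those of the Chrm2 length. The TATA box TATAAA, the cyclic AMP response element TGACGTCA and the STAT motif TTCNNNGAA, searched on both strands, have no match in the 3 windows. The E box CANNTG matches at 2 places in the Bche window and 1 in the Ache window, and 63.4% and 65.4% of windows of those lengths hold one. A match is a string of letters and not evidence of binding.

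Methacholine, the muscarinic agonist, was followed by no called change in any of the 9 genes. No gene was called in MCh against PBS in the long protocol, where 0.0638% of all tested genes were called, or in the short protocol, where 0.00638% were. None was called in the mean of both protocols (background 0.14%), or in the long effect minus the short effect (background 0.0%, with 989 genes at an unadjusted p under 0.05). All 6 tested genes had an unadjusted p above 0.05 in each of these comparisons, the lowest being 0.102 for Chrm2 in the mean of both protocols. The MCh and PBS ranges overlapped for all 6 genes in both protocols, where 13.1% of all tested genes had ranges that did not overlap in the long and 8.76% in the short protocol. In the long protocol the sign of the difference was not stable over the alternatives for any of these genes, which ranged from -0.41 to 0.33 for Chrm3, -1.29 to 0.32 for Chrm2, -0.67 to 0.12 for Chrm1, -0.39 to 0.06 for Chrm4, -0.27 to 0.28 for Bche and -0.75 to 0.07 for Ache. Leaving out long MCh library c turned Chrm3 to 0.30 and Chrm1 to 0.12, and leaving out library a turned Bche to 0.20.

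Chrm3, the receptor of airway smooth muscle contraction, lies on chromosome 13 from 9875486 to 10361062 (GRCm38.p6, the mm10 assembly). In the long protocol it had 1.90, 1.10, 0.0442 and 0.842 FPKM in MCh libraries a to d, against 0.798, 0.956 and 0.959 FPKM in PBS libraries 1 to 3. Libraries a and c, the highest and the lowest of all 22, are those with most genes listed at 0. In the short protocol it had 0.922, 1.15, 1.64 and 1.14 FPKM in MCh libraries 1 to 4, against 0.850, 1.001 and 1.15 FPKM in PBS libraries 1 to 3. MCh minus PBS was -0.12 ± 0.32 in the long protocol (95% interval -0.79 to 0.56) and 0.18 ± 0.32 in the short protocol (-0.50 to 0.86). Neither passed (limma, adjusted p = 0.886 and 0.922).

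Chrm2, the Gi-coupled receptor of nerve endings, smooth muscle and heart, lies on chromosome 6 from 36387991 to 36528638. It had 0, 1.25, 0.0301 and 1.09 FPKM in long MCh libraries a to d, against 0.585, 0.740 and 1.28 FPKM in long PBS libraries 1 to 3. Library a, with 0 FPKM for Chrm2, had the most Chrm3. In short MCh libraries 1 to 4 Chrm2 had 1.45, 0.976, 0.748 and 0.439 FPKM, against 1.15, 1.34 and 1.196 FPKM in short PBS libraries 1 to 3. MCh minus PBS was -0.53 ± 0.36 in the long protocol (95% interval -1.29 to 0.23, limma adjusted p = 0.464) and -0.35 ± 0.36 in the short protocol (-1.11 to 0.41, adjusted p = 0.848). Without the 3 libraries with most genes at 0 the long value was 0.32, with the opposite sign, so no direction is read from it.

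Chrm1, the Gq-coupled receptor known from ganglia and glands, lies on chromosome 19 from 8664005 to 8683606. It had 1.27, 0.683, 0 and 0.954 FPKM in long MCh libraries a to d, against 1.13, 0.559 and 0.872 FPKM in long PBS libraries, and the difference was -0.26 ± 0.30 (limma, adjusted p = 0.681). It had 0.659, 0.314, 0.250 and 0.541 FPKM in short MCh libraries, against 0.247, 0.269 and 0.351 FPKM in short PBS libraries, with a difference of 0.23 ± 0.30 (adjusted p = 0.886). The groups overlap in both protocols. The transcript table lists 2 transcripts of Chrm1, and the second was above 0 in 1 library each of short MCh, short OVA, short PBS and long MCh.

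Chrm4, the second Gi-coupled receptor, was close to the lowest values that the files hold. It was listed at 0 in all 4 long MCh libraries and at 0, 0 and 0.127 FPKM in long PBS libraries. Short MCh libraries 1 to 4 had 0, 0.120, 0.128 and 0.0264 FPKM, against 0.0330, 0.0206 and 0.0250 FPKM in short PBS libraries. It passed the filter through exactly 3 libraries, short MCh 2 and 3 and long PBS 3, and its difference on the log2 scale is dominated by the added 0.5. Slc5a7, the high-affinity choline transporter of cholinergic nerve endings, was above 0 in short MCh libraries 1 and 2 alone, at 0.0402 and 0.0841 FPKM, and was not tested.

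The esterases did not pass either. Bche had 2.51, 7.42, 5.94 and 6.69 FPKM in long MCh libraries a to d, against 6.45, 4.60 and 6.34 FPKM in long PBS libraries 1 to 3 (difference -0.11 ± 0.35, limma adjusted p = 0.897). It had 12.1, 6.16, 9.21 and 4.05 FPKM in short MCh libraries 1 to 4, against 3.98, 7.12 and 4.35 FPKM in short PBS libraries 1 to 3 (difference 0.51 ± 0.35, 95% interval -0.22 to 1.24, adjusted p = 0.759). Of the short MCh libraries the highest is library 1 and the lowest library 4, both among the 4 of lowest array weight. Ache had 0, 0.145, 0 and 0.364 FPKM in long MCh libraries, against 0.195, 0.309 and 0.142 FPKM in long PBS libraries (difference -0.22 ± 0.21, adjusted p = 0.606). The 2 values at 0 are those of libraries a and c. It had 0.656, 0.174, 0.228 and 0.0847 FPKM in short MCh libraries, against 0.231, 0.208 and 0.388 FPKM in short PBS libraries (difference -0.02 ± 0.21, adjusted p = 0.989).

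**Figure D2:**
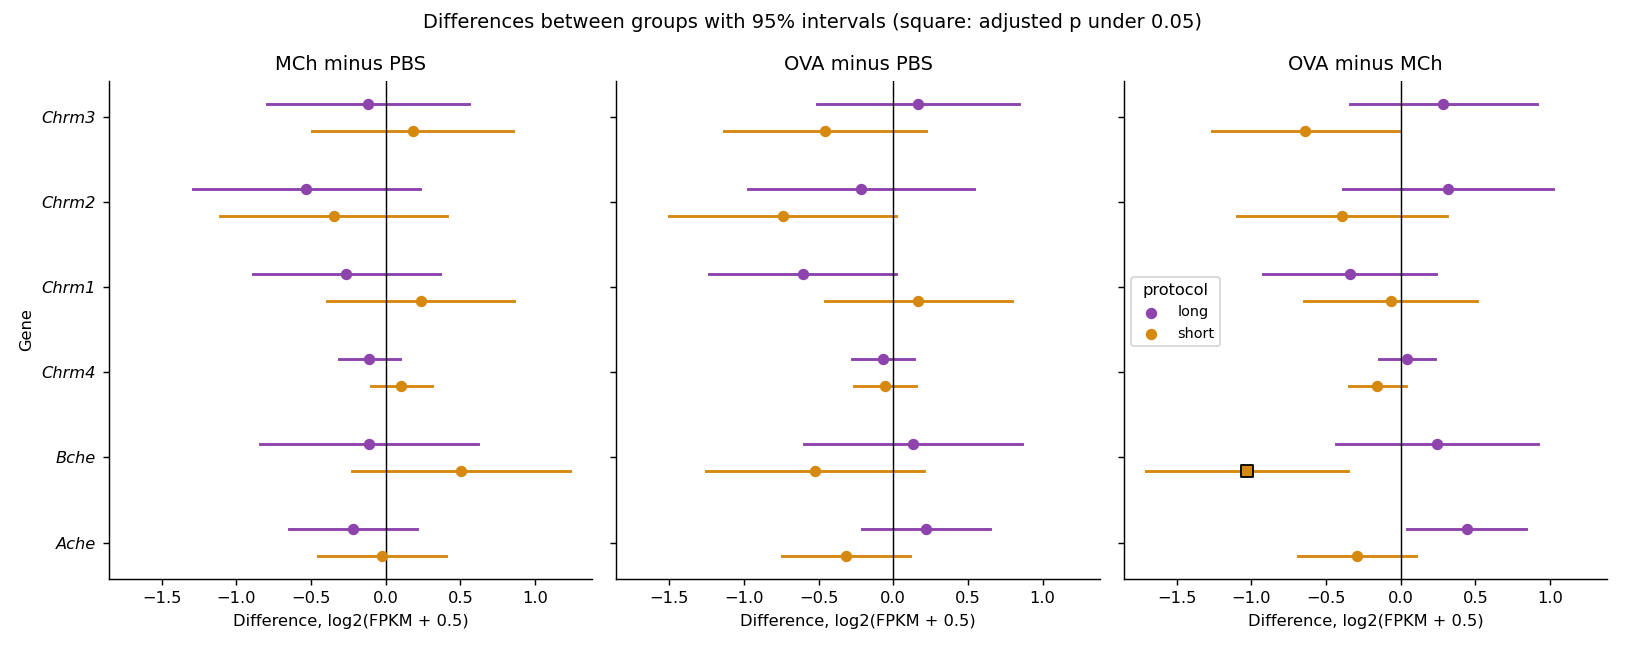
Differences between groups on the log2(FPKM + 0.5) scale (horizontal axes) with 95% intervals for the 6 tested genes (vertical axes), in the long protocol (purple) and the short protocol (orange). The interval of Bche in OVA minus MCh, short protocol, runs from -1.71 to -0.36 and is the only one marked as called. All MCh minus PBS intervals include 0.

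After OVA in the short protocol none of the 9 genes passed the test. The ranges of Chrm2, Chrm3 and Ache lay below all PBS libraries, in a comparison where 52.4% of all tested genes had ranges that did not overlap. Chrm2 had 0.427, 0.532, 0.462 and 0.734 FPKM in short OVA libraries 1 to 4, a mean of 0.539 ± 0.137, against 1.23 ± 0.0987 FPKM in short PBS libraries (SD, n = 4 and 3). Its difference was -0.74 ± 0.36 (95% interval -1.50 to 0.02, limma adjusted p = 0.148). Chrm3 had 0.505, 0.662, 0.788 and 0.434 FPKM in short OVA libraries, a mean of 0.597 ± 0.159, against 1.001 ± 0.151 FPKM in short PBS libraries, with a difference of -0.46 ± 0.32 (-1.13 to 0.22, adjusted p = 0.33). The highest OVA value of each receptor is under its lowest PBS value. Whether cells were fewer or held less of these transcripts cannot be told apart in RNA of whole lung.

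Ache, acetylcholinesterase, had 0.186, 0.191, 0.101 and 0.0177 FPKM in short OVA libraries, against 0.231, 0.208 and 0.388 FPKM in short PBS libraries, with a difference of -0.32 ± 0.21 (limma, adjusted p = 0.286). A second transcript of Ache was above 0 in short PBS library 3 alone of these libraries, at 0.602 FPKM. By the other transcript the groups overlapped, with 0.0877 FPKM in that PBS library against 0.0315 to 0.339 FPKM in short OVA libraries. Bche had 2.53, 2.78, 5.92 and 2.82 FPKM in short OVA libraries, against 3.98, 7.12 and 4.35 FPKM in short PBS libraries, with a difference of -0.53 ± 0.35 (adjusted p = 0.3). Its groups overlapped through OVA library 3 alone. Chrm1 had 0.461, 0.303, 0.539 and 0.262 FPKM in short OVA libraries, overlapping the PBS range (difference 0.17 ± 0.30, adjusted p = 0.74). Chrm4 was at 0 in short OVA libraries 1, 3 and 4 and at 0.0274 FPKM in library 2.

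These values have to be read against a comparison in which much of the transcriptome moved. In OVA against PBS, short protocol, 24.2% of all tested genes were called, and 0 of the 6 tested genes described here, none of which had an unadjusted p under 0.05. The 3 of 6 genes with ranges that did not overlap are a share close to that of all tested genes. The count of called members rested on the libraries kept. Without the 4 libraries of lowest array weight, all of them MCh, 54.0% of all genes were called, and of the 6 genes Chrm2 at -0.74 (limma, adjusted p = 0.0019) and Chrm3 at -0.46 (adjusted p = 0.0316) were. No library of this comparison was left out there, and the differences were the same, with a smaller estimate of the spread. Over 36 alternatives the adjusted p of Chrm2 ran from 0.0019 to 0.37 and that of Chrm3 from 0.0274 to 0.634.

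Transcript length moved with this comparison. The tested genes were divided by length into 5 classes of about equal size. In the shortest class 6.7% of genes had all short OVA libraries below all short PBS libraries, in the next classes 16.1%, 27.4% and 39.1%, and in the longest class 57.7%. Chrm1, Chrm2 and Bche are in the longest class, Chrm3 in class 4, Ache in class 2 and Chrm4 in class 1. With each library's trend with length removed, Chrm2 was at -0.42 (limma, adjusted p = 0.37) and Chrm3 at -0.26 (adjusted p = 0.634). The part of transcript length in the receptor values was not tested further.

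**Figure D3:**
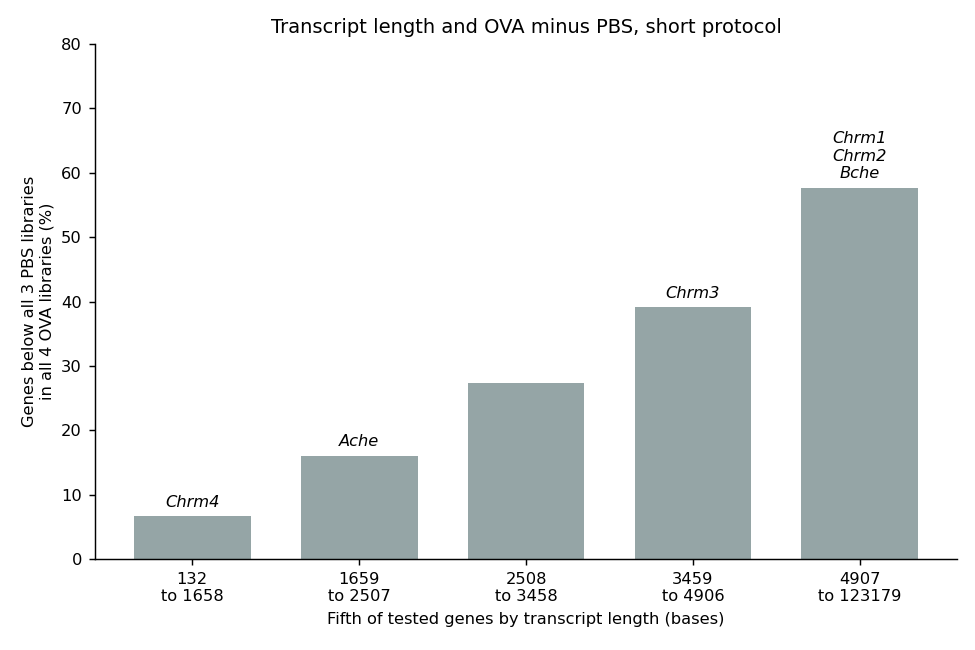
Share of tested genes, in percent, whose 4 short OVA libraries all lie below the 3 short PBS libraries (vertical axis), by class of transcript length in bases (horizontal axis), with the 6 tested genes named above their class. The share runs from 6.7% in the shortest class to 57.7% in the longest, which holds Chrm1, Chrm2 and Bche.

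Markers of the cells that carry these receptors gave mixed values in the same libraries. In OVA against PBS of the short protocol 24.2% of all tested genes were called, in either direction. The 10 smooth muscle genes summed to 542 to 657 FPKM in short OVA libraries, against 295 to 368 FPKM in short PBS libraries. Of these genes 4 were called higher, among them the actin Acta2, and 1 lower, while Chrm3 values lay below PBS. The 12 cardiac muscle genes summed to 72.3 to 314 FPKM in short OVA libraries, against 158 to 653 FPKM in short PBS libraries, and none was called. Chrm2 is the muscarinic receptor of heart muscle, and the part of cardiac tissue in its values was not tested. Of 10 peripheral neuron markers 6 passed the filter, with a median of -0.151. Tubb3, a neuronal tubulin, was called higher at 0.43 ± 0.14 (limma, adjusted p = 0.0349). Its level was low, at 0 in 8 of the 22 libraries and at most 0.487 FPKM, so the added 0.5 weighs on this difference. Ret was called lower at -1.59 ± 0.21 (limma, adjusted p = 1.71e-05) and made up most of the list's sum, which ran from 5.74 to 9.57 FPKM in short OVA libraries, against 19.3 to 24.8 FPKM in short PBS libraries. The tyrosine hydroxylase gene Th was at 0 in 21 of the 22 libraries.

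In the long protocol the OVA ranges of Chrm2, Chrm3 and the esterases overlapped those of PBS, and of the 6 tested genes Chrm1 alone had a range that did not. Chrm1 had 0.193, 0.343, 0.467 and 0.541 FPKM in long OVA libraries a to d, a mean of 0.386 ± 0.152, against 0.855 ± 0.288 FPKM in long PBS libraries (SD, n = 4 and 3). Its difference was -0.61 ± 0.30 (95% interval -1.23 to 0.02, limma adjusted p = 0.712), and 23.1% of all genes had ranges that did not overlap. None of the 6 genes was called in this comparison, where 1.18% of all tested genes were. Without the 4 libraries of lowest array weight Chrm1 was called (adjusted p = 0.0356, against a background of 7.72%), and its adjusted p over 34 alternatives ran from 0.0247 to 1.

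The other values of the long OVA libraries overlapped PBS. Chrm2 had 0.552, 0.463, 1.02 and 0.645 FPKM (difference from PBS -0.22 ± 0.36, limma adjusted p = 1), and Chrm3 had 1.21, 1.54, 0.663 and 1.02 FPKM (0.17 ± 0.32, adjusted p = 1). Bche was at 5.95, 7.14, 6.46 and 5.82 FPKM (0.13 ± 0.35, adjusted p = 1). Ache was at 0.308, 0.307, 0.360 and 0.344 FPKM (0.22 ± 0.21, adjusted p = 1). Chrm4 was at 0 in libraries b and d and at 0.0291 and 0.0300 FPKM in libraries a and c. The SD of Ache in this group, 0.0264 FPKM, was the smallest of its 6 groups.

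The OVA effect in the long protocol minus that in the short protocol was 0.54 ± 0.29 for Ache (limma, adjusted p = 0.4), 0.63 ± 0.46 for Chrm3 (adjusted p = 0.557) and 0.52 ± 0.51 for Chrm2 (adjusted p = 0.687). For Bche it was 0.65 ± 0.49 (adjusted p = 0.575), and for Chrm1 it had the other sign, at -0.77 ± 0.42 (adjusted p = 0.405). None of the 6 passed, against 1.88% of all tested genes, so a difference between the protocols is not shown. Without the 4 libraries of lowest array weight Ache (adjusted p = 0.037) and Chrm1 (adjusted p = 0.0204) passed, where 30.7% of all genes did. Their adjusted p over 34 alternatives ran from 0.0194 to 0.668 and from 0.0204 to 0.641.

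Butyrylcholinesterase was the only one of the 9 genes called in any comparison, lower in OVA than in MCh lungs of the short protocol. Bche averaged 3.51 ± 1.61 FPKM in short OVA libraries and 7.87 ± 3.51 FPKM in short MCh libraries (SD, n = 4 each), with a difference of -1.03 ± 0.32 (95% interval -1.71 to -0.36, limma adjusted p = 0.0358). OVA library 3, at 5.92 FPKM, lay above MCh library 4, at 4.05 FPKM, so the groups overlapped. In this comparison 15.2% of all tested genes were called. The call was lost without short MCh library 1 (-0.80, adjusted p = 0.124), 2 (-1.11, 0.0543) or 3 (-0.93, 0.113), and without short OVA library 1 (-0.92, 0.118), 2 (-0.96, 0.0941) or 4 (-0.97, 0.089). It was also lost when these groups were fitted alone (adjusted p = 0.101), and over 36 alternatives the adjusted p ran from 0.000858 to 0.124 with the same sign in all.

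Chrm3 had the second largest difference there, at -0.64 ± 0.30 (limma, adjusted p = 0.171), with all 4 OVA values below all 4 MCh values, as in 18.1% of all tested genes in either direction. Chrm2 was at -0.39 ± 0.34 (adjusted p = 0.49) and Ache at -0.29 ± 0.19 (adjusted p = 0.342). Without the 4 libraries of lowest array weight, which leaves short MCh libraries 2 and 3, 49.3% of all genes were called, and Bche (-1.08, adjusted p = 0.00403) and Chrm3 (-0.79, adjusted p = 0.00299) were among them. The adjusted p of Chrm3 over 36 alternatives ran from 0.000963 to 0.371. Chrm4 passed the filter through short MCh libraries 2 and 3, so its test against MCh is not read.

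In OVA against MCh of the long protocol none of the 6 genes was called, where 6.06% of all tested genes were and 13.7% had ranges that did not overlap. Ache had the largest difference, at 0.44 ± 0.19 (limma, adjusted p = 0.159), with MCh libraries a and c at 0 FPKM. It was called without long MCh library d (0.61, limma adjusted p = 0.0334), where 15.3% of all tested genes were. Chrm1 was called without long MCh library c (-0.73, limma adjusted p = 0.0421), where 3.75% were. The ranges of their adjusted p over 34 alternatives were 0.0334 to 0.763 for Ache and 0.0421 to 0.832 for Chrm1. Bche was at 0.24 ± 0.32 (adjusted p = 0.678).

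Between the vehicle groups Chrm1 had the largest difference of the 6 genes. It averaged 0.855 ± 0.288 FPKM in long PBS libraries and 0.289 ± 0.0546 FPKM in short PBS libraries (SD, n = 3 each), and all 3 long values lay above the short ones. Of all tested genes 28.1% had ranges that did not overlap, in either direction. The difference was 0.76 ± 0.32 (95% interval 0.09 to 1.43), with an unadjusted p of 0.0282 and a limma adjusted p of 0.797. None of the 6 genes was called, against 0.166% of all tested genes. Without the 4 libraries of lowest array weight Chrm1 was called (adjusted p = 0.0171, background 7.73%), and over 35 alternatives its adjusted p ran from 0.011 to 1. Chrm2 was at -0.37 ± 0.39, Bche at 0.18 ± 0.37 and Ache at -0.12 ± 0.22. The long OVA against PBS comparison of Chrm1 uses the same long PBS libraries.

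Several signalling genes downstream of the receptors changed after short OVA. Of 21 genes for G proteins, phospholipases C beta, inositol trisphosphate receptors, potassium channels, receptor kinases and arrestins, 2 rose and 11 fell against PBS, where 24.2% of all tested genes were called, 1950 higher and 1840 lower. The list's median was -0.479, beside -0.059 over all tested genes. In the longest class of genes by transcript length the median was -0.396, and the part of length in the list's median was not tested. Gna14, a Gq family alpha subunit, averaged 9.92 ± 2.70 FPKM in short OVA libraries and 4.47 ± 0.218 FPKM in short PBS libraries and rose by 1.03 ± 0.23 (limma, adjusted p = 0.00313). Gnai3, a Gi alpha subunit, rose by 0.42 ± 0.13. Gna11, another Gq family member, had 12.1 ± 0.822 FPKM in short OVA libraries against 17.6 ± 1.09 FPKM in short PBS libraries and fell by 0.52 ± 0.12 (adjusted p = 0.0036). Gnao1, the Go alpha subunit, had 3.18 ± 0.575 FPKM in short OVA libraries against 7.75 ± 1.26 FPKM in short PBS libraries and fell by 1.17 ± 0.30 (limma, adjusted p = 0.00791). Its adjusted p was 0.053 without short PBS library 3 and 0.0556 with replicate number as a block.

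The count of signalling genes that fell depended on the settings and libraries. With each library's length trend removed 5 fell (21.2% of all tested genes called in either direction), and without the 4 libraries of lowest array weight 15 did (54.0% called). Without short OVA library 1, 2 or 3 the count was 3, 5 or 6, where 15.8%, 19.2% or 20.9% of all tested genes were called. Without short PBS library 1, 2 or 3 it was 5, 6 or 1, where 18.2%, 18.2% or 12.8% were. Gna14 and Gna11 were called under all 36 alternatives, Gnai3 not without short OVA library 1 or 2 or short PBS library 2 or 3 (adjusted p of 0.0655 to 0.0968). Kcnj3 and Kcnj5, which form the potassium channel opened by M2 in the heart, were at -0.67 ± 0.32 and -0.81 ± 0.47 and did not pass.

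Choline supply and partners of the esterases changed in few genes. Of 18 genes 15 were tested, and in short OVA against PBS 1 rose and 3 fell, a share close to the 24.2% of all tested genes called, with a median of -0.193. Slc44a2, a choline transporter-like protein, had 84.9 ± 5.07 FPKM in short OVA libraries against 122 ± 7.13 FPKM in short PBS libraries and fell by 0.52 ± 0.09 (limma, adjusted p = 0.000339, called under all 36 alternatives). Slc44a4, of the same family, rose by 0.84 ± 0.25 (adjusted p = 0.0209, but 0.0558 without short OVA library 4 and 0.122 without short PBS library 3). Chka, a choline kinase, fell by 0.61 ± 0.20 and Pcyt1a, an enzyme of phosphatidylcholine synthesis, by 0.35 ± 0.11. Both calls were lost without any 1 of several short libraries. These were OVA 1 or 4 or any of the PBS libraries for Chka, and OVA 1 or 2 or any of the PBS libraries for Pcyt1a. That of Pcyt1a was also lost with length trends removed (-0.11), with median-of-ratios scaling (limma, adjusted p = 0.0503) and with replicate number as a block (0.0936). Colq, the collagen tail that anchors acetylcholinesterase, did not pass (0.07 ± 0.31), and Prima1, its membrane anchor, did not pass the filter.

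Nicotinic receptor subunits, which form the ion channel class of acetylcholine receptors, were mostly at or near 0, and 7 of 16 were tested. Chrna7, the subunit of the alpha7 receptor, averaged 1.20 ± 0.242 FPKM in short OVA libraries and 0.296 ± 0.190 FPKM in short PBS libraries and rose by 1.12 ± 0.25 (limma, adjusted p = 0.00312, called under all 36 alternatives). Chrna1 had 0.372 ± 0.0758 FPKM in short OVA libraries against 0.115 ± 0.00681 FPKM in short PBS libraries and rose by 0.50 ± 0.15 (adjusted p = 0.0185, but 0.0533 to 0.0645 without short OVA library 1 or short PBS library 2 or 3). Chrnb1 had 4.48 ± 0.599 FPKM against 5.93 ± 0.205 FPKM and fell by 0.38 ± 0.12 (limma, adjusted p = 0.0283, lost without short OVA library 1 or 2 or any short PBS library). This call was also lost with median-of-ratios scaling (adjusted p = 0.0542) and with replicate number as a block (0.0596). The list's median was -0.072. Against MCh in the short protocol Chrna7 was higher by 1.23 ± 0.23 (adjusted p = 0.000884) and Chrna1 by 0.58 ± 0.14 (adjusted p = 0.00596), both under all alternatives run. Chrnb1 was called lower there, where 15.2% of all tested genes were called. Its difference over 36 alternatives ran from -0.57 to -0.39. The call was lost in 1 of them, a fit of these groups alone (limma, adjusted p = 0.0719).

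**Figure D4:**
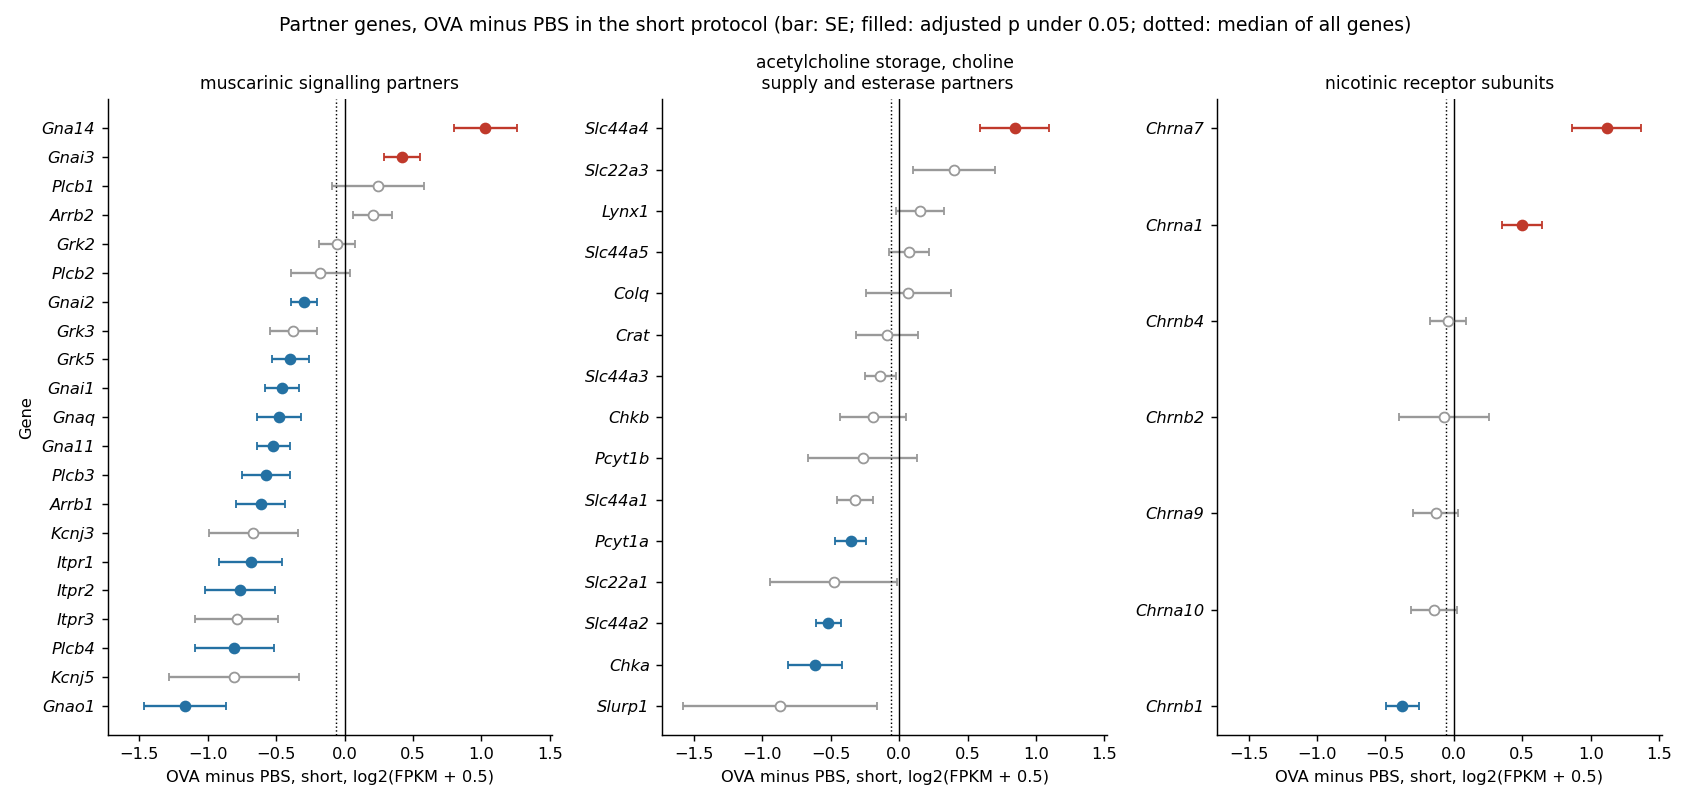
Differences of OVA minus PBS in the short protocol on the log2(FPKM + 0.5) scale (horizontal axes, bars are SE) for the tested genes of 3 partner lists (vertical axes), with called genes filled and the median of all tested genes dotted at -0.059. Gna14, Slc44a4 and Chrna7 stand at the upper end of their lists and Gnao1 at the lower end of the signalling list.

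Against MCh in the short protocol the signalling list had 1 gene higher and 2 lower in OVA, Gna14 at 0.75 ± 0.22, Gnai1 at -0.37 ± 0.11 and Plcb4 at -0.80 ± 0.27, all lost in a fit of these groups alone (limma, adjusted p = 0.082, 0.127 and 0.115). As reported 15.2% of all tested genes were called. With array weights 2 of the list were higher and 16 lower, where 57.3% of all tested genes were called, and without the 4 libraries of lowest array weight 2 and 13, where 49.3% were. In the choline list 3 were lower, Slc44a2 by a log2 of -0.39 ± 0.08 (adjusted p = 0.00226, called under all 36 alternatives), Chka (-0.62 ± 0.18) and Slc44a1 (-0.37 ± 0.12). Of 36 alternatives 21 lost the call of Plcb4 and 20 that of Slc44a1. The call of Chka was lost without short MCh library 1, 2 or 3 or short OVA library 1 or 4 (adjusted p of 0.0532 to 0.0899). In OVA against MCh of the long protocol Slc44a2 was lower, at -0.36 ± 0.08 (adjusted p = 0.0132, 0.0648 without long OVA library a and 0.081 without the 3 libraries with most genes at 0). Slc22a3, an organic cation transporter, was higher at 0.98 ± 0.28 (adjusted p = 0.0398), but stood at 0.35 without the 3 libraries with most genes at 0 and at 0.66 without long MCh library a (adjusted p = 0.505 and 0.108), and lost its call in 17 of 35 alternatives. No gene of the 3 lists was called in MCh against PBS in either protocol, in OVA against PBS of the long protocol or between the PBS groups. Few of all tested genes were called there either. The shares were 0.0638% in long and 0.00638% in short MCh against PBS, 1.18% in long OVA against PBS and 0.166% between the PBS groups.

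Genes whose levels followed a member most closely over the 22 libraries, among genes with a mean of at least 1 FPKM, were Rufy4 for Chrm3 (Pearson's r = 0.905 of log2 values), L3mbtl3 for Chrm2 (0.899), Smpd3 for Chrm1 (0.833), Angptl7 for Bche (0.865) and H4c14 for Ache (0.864). The 3 libraries with most genes at 0 share in all of these values, which describe these libraries only. Tuft cells are epithelial cells known to synthesize acetylcholine. The tuft cell genes Gnat3 and Il25 were at 0 in 20 libraries each. Of 8 tuft cell genes only 3 passed the filter, and 2 were called higher in short OVA than in short PBS libraries. In that comparison 24.2% of all tested genes were called. Among the 2 was Dclk1, a kinase gene used as a tuft cell marker (1.43 ± 0.43, limma adjusted p = 0.0205). Chat was at 0 in all of these libraries, and a change in tuft cells was not tested.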

How the data were processed

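Lung RNA was extracted with an RNeasy kit with DNase I and made into libraries with a TruSeq Stranded Total RNA kit, per the labels' protocols. The submitters' processing notes name Trim Galore, STAR, DESeq2 and mm10, without saying which steps gave FPKM. FPKM values per gene and per transcript were used as deposited by the authors. Of the 22 columns 14 carry a replicate number, and the 8 long MCh and long OVA columns were known by group only and are lettered. Values were tested with limma 3.58.1 in R 4.3.3 on log2(FPKM + 0.5), in 1 model of the 6 group means with a trended prior, two-sided, with Benjamini-Hochberg adjustment over 15682 genes. P-values set a difference of group means against the spread between libraries within groups, estimated over all 6 groups together. Library weights are limma's array weights. The low steps of FPKM were whole multiples (within 0.05) in only 24.3% to 47.6% of values, so reads were not recovered and no count test was run. Same-numbered libraries correlated at -0.27 to 0.356, so the numbers do not pair them.

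The members, lists and alternatives were chosen with earlier results of these data known. Named were all 9 members, up to 3 called genes of each list and contrast by smallest p, and the closest genes by correlation. Gnai3, Chka, Kcnj3, Kcnj5, Colq, Prima1 and the marker genes were named after their values were seen. Pipelines were tested on simulated data. Some items are not reported here.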

Additional observations from a re-analysis of the deposited data

Results flagged for a closer look

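A library that stood far from the other 3 of its group was found in 2 of 24 groups of 4 libraries with any value above 0. Chance gives about 1 in 20, but only where values do not pile up at 0. In the short OVA group the highest Bche value, 5.92 FPKM in library 3, was separated from the next by 0.912 of the group's range, with the other libraries at 2.53, 2.78 and 2.82 FPKM. Bche in this group enters the comparison with MCh, and without library 3 its difference was -1.28 on the log2 scale. In the same group Chrm4 was at 0.0274 FPKM in library 2 and at 0 in the other libraries, a gap of 1.0 of the range. With the other libraries at 0 the gap is 1.0 whatever the value of library 2, so this flag is not read.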

How the results depend on the processing

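No result reversed a called direction under the alternatives run, and no gene of the 9 was called in MCh against PBS under any of them. Of the 6 tested genes, 0 were called in short OVA against PBS as reported, against 3 with array weights (51% of all tested genes called), 2 in a fit of the groups alone (48.4%), 2 without the 3 libraries with most genes at 0 (43%), 2 without the 4 of lowest array weight (54.0%), 1 with quantile normalization (28%) and 1 with the replicate block (23.1%). In short OVA against MCh 1 was called as reported, against 4 with array weights (57.3%), 3 without the 4 libraries of lowest weight (49.3%) and 2 each with quantile normalization (18.5%), with the replicate block (18.7%) and without the 3 libraries with most genes at 0 (25.2%). The 4 and the 3 include Chrm4, which passed the filter through short MCh libraries and is not read as a call. Long OVA against PBS had 1 with array weights (13.1%) and 1 without the 4 libraries (7.72%), and so had long against short PBS (10.6% and 7.73%), with 0 as reported in both. The OVA effect in the long minus the short protocol had 2 with array weights (31.2%), 2 in the groups alone (28.8%) and 2 without the 4 libraries (30.7%). Leaving out 1 library at a time gave 0 to 2 in short OVA against MCh and 0 to 1 in long OVA against MCh, and 0 to 0 elsewhere. In these fits 9.92% to 30.8% of all tested genes were called in short and 2.63% to 15.3% in long OVA against MCh. The count of 2 came without long MCh library c, where 18.5% were called. Elsewhere the share was at most 32%, in short OVA against PBS. The cause of these changes was not tested. The replicate numbers did not pair the libraries: 4 of 12 correlated best with their own number. The low FPKM of Chrm4, Ache and Slc5a7 limits what can be said of them. So does that of Chrm1, with a mean of 0.165 FPKM by summed transcripts.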
